A study of Mus musculus with 4 samples.

Results

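Fos, Fosb, Jun, Junb, Egr1, Ier2, Btg2, Zfp36 and Dusp1 form a group of 9 immediate-early genes. They were chosen by name among the 32285 genes listed in each count table, with earlier results of these data known. All 9 were found in all 4 tables, and all 9 passed the filter on low counts over the whole section. The study asked how inhaled vape aerosol alters the mouse lung. Cryosections of upper pulmonary branches were profiled with Visium, in which the spots of a slide capture polyadenylated RNA from the several cells over each of them and a unique molecular identifier (UMI) marks every molecule. The Vaped (V) group held 1 male and 1 female that breathed e-vapor of a flavored vape juice from JUUL pens for 4 h per day, 5 days per week over 9 weeks, in whole body chambers, and the Non-Vaped (NV) group held 1 male and 1 female without that exposure. All were C57BL/6J mice, aged 6 to 8 weeks at the start of exposure, and no mouse carried an engineered allele. Each mouse gave 1 section, so the 4 sections are the replicates, and whatever tissue a section happened to include is part of the difference between mice.

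Immediate-early genes are transcribed within minutes of a stimulus such as a growth factor, stretch, oxidant or injury, without new protein synthesis, when kinases of the MAPK pathways act on factors that are already bound to their promoters. Fos, Fosb, Jun and Junb encode subunits of AP-1, the dimeric transcription factor that carries the first wave of the response into later genes, and Egr1 encodes a zinc finger factor of the same wave. Btg2, Zfp36 and Dusp1 encode brakes: an antiproliferative cofactor of mRNA deadenylation, a protein that destabilizes AU-rich mRNAs of cytokines, and a phosphatase that switches off MAP kinases. Ier2 encodes a small nuclear protein of the early response.

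Promoter sequences are shown for 5 members because the comparisons below turn on them: Dusp1, Btg2 and Jun, which were called lower in the V female in airway-rich spots, Fosb, which was below both NV mice in each V mouse, and Zfp36, which departed from the others in the V male. Each run is the 250 bases before the annotated start in RefSeq (GRCm38.p6), read 5′ to 3′ on the strand of the gene, at chr17:26508473-26508722 (minus strand) for Dusp1, chr1:134079156-134079405 (minus strand) for Btg2, chr4:95052223-95052472 (minus strand) for Jun, chr7:19310046-19310295 (minus strand) for Fosb and chr7:28379229-28379478 (minus strand) for Zfp36. Capitals mark matches on either strand to the cAMP response element (CRE, TGACGTCA), the AP-1 site (TGANTCA), the EGR site (GCGNGGGCG) or the CArG box of serum response factor.
Dusp1: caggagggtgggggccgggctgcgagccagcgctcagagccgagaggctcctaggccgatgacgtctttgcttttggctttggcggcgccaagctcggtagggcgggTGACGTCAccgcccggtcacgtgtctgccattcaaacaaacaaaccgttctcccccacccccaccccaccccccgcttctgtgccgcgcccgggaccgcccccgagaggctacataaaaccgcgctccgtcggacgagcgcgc
Btg2: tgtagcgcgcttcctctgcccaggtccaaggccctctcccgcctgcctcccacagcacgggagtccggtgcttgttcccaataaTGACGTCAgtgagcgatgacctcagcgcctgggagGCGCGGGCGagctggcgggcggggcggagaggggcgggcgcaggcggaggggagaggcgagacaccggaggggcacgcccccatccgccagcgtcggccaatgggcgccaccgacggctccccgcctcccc
Jun: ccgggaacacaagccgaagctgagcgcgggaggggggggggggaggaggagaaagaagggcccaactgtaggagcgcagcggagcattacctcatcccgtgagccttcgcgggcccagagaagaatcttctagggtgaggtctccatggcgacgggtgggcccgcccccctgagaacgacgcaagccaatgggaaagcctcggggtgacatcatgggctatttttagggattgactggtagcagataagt
Fosb: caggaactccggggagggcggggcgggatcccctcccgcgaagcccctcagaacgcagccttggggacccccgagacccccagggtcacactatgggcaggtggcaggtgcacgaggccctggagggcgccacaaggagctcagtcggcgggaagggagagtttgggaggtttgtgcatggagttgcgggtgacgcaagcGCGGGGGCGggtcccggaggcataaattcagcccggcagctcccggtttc
Zfp36: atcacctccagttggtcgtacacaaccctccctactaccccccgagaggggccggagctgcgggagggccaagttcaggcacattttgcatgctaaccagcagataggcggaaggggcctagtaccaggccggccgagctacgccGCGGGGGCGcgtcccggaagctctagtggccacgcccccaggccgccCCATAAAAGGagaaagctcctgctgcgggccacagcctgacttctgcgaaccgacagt

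The RefSeq table had promoters of 7 of the 9 members (Fos, Fosb, Jun, Junb, Btg2, Zfp36 and Dusp1), with Egr1 and Ier2 not in it. A full CRE was found in 2 of the 7, Btg2 and Dusp1, starting 166 and 143 bases before the start, and in 1.62% of 27025 promoters of the same length. The EGR site was found in 3 of the 7 (Fosb, Btg2 and Zfp36) and in 4.65% of all promoters, and the CArG box in 1 of the 7 (Zfp36, 58 bases before the start) and in 1.40% of all. The 5-base core TGACG, which lies inside the full CRE, was found in 5 of the 7 and in 17.9% of all promoters, while the AP-1 site was found in 0 of the 7 and in 6.87% of all. No marked matches overlapped each other. These are matches of letters within a short window, and binding was not measured.

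The sections held between 473 and 2053 spots and between 6957392 and 34308556 UMIs, with the V female the most deeply sequenced. The members summed to between 5449 and 16936 UMIs per section, so sampling error was small for the abundant members and large for Fosb (22 to 94 UMIs). The V male section stood apart: its 10 cardiac muscle markers summed to 24.2 UMIs per 1000000 (CPM) against 9350 to 17187 CPM in the other 3 sections, its neutrophil markers to 580 CPM against 75.1 to 160, and its mitochondrial genes took 5.10% of UMIs against 9.72% to 10.9%. Alveolar markers were present in every section at 27419 to 54281 CPM. Sections shared between 58.6% and 83.4% of the spot barcodes of the smaller section, since Visium slides carry the same barcode set.

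Over the whole section, Fosb and Egr1 were the members whose levels separated the groups. Fosb stood at 10.0, 4.17, 1.85 and 1.75 CPM and Egr1 at 91.0, 27.2, 11.9 and 23.3 CPM, with the mice ordered NV male, NV female, V male, V female here and below. Both V mice lay below both NV mice for these 2 genes, with the V mice close together for Fosb and the NV male far above the other 3 mice for Egr1. The log2 fold change of V against NV was -2.00 for Fosb (SE 0.55) and -1.72 for Egr1 (SE 0.74), and without the NV male it was -1.24 and -0.63. Of 12 marker lists, cardiac muscle (24.2 and 9350 CPM against 16374 and 17187) and B and plasma cells (189 and 253 against 536 and 1080) also lay lower in both V mice. The summed macrophage (638 and 495 against 278 and 380) and blood markers (22492 and 13718 against 11716 and 12272) lay higher. Among them Mrc1, Cd68, Hba-a1 and Hba-a2 overlapped between the groups. The part of these lists in the result was not tested. Fos, the partner of Jun in the classical AP-1 dimer, was at 53.4 CPM in the NV male and at 17.7, 19.9 and 16.4 CPM in the NV female, V male and V female. For Fos the NV male alone was high, and the other 3 mice lay between 16.4 and 19.9 CPM.

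Jun was at 316, 210, 296 and 163 CPM in the NV male, NV female, V male and V female, and Junb at 87.1, 54.3, 43.3 and 55.2 CPM. Both genes overlapped between the groups, with the V female lowest for Jun and the V male lowest for Junb. Ier2 stood at 74.8 CPM in the NV male and between 53.8 and 55.1 CPM in the other 3 mice.

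Among the brakes, Dusp1 was at 332, 252, 284 and 85.8 CPM, Btg2 at 145, 89.7, 116 and 54.1 CPM, and Zfp36 at 75.0, 74.5, 96.5 and 39.4 CPM in the NV male, NV female, V male and V female. Dusp1 had a log2 fold change of -0.74, which was -0.18 without the V female and -1.69 without the V male. The V female was lowest for all 3, and the V male lay between the NV mice for Dusp1 and Btg2 and above both for Zfp36. The summed level of the 9 members was 1185, 783, 924 and 494 CPM, again with the V female lowest and the V male between the NV mice.

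**Figure D1:**
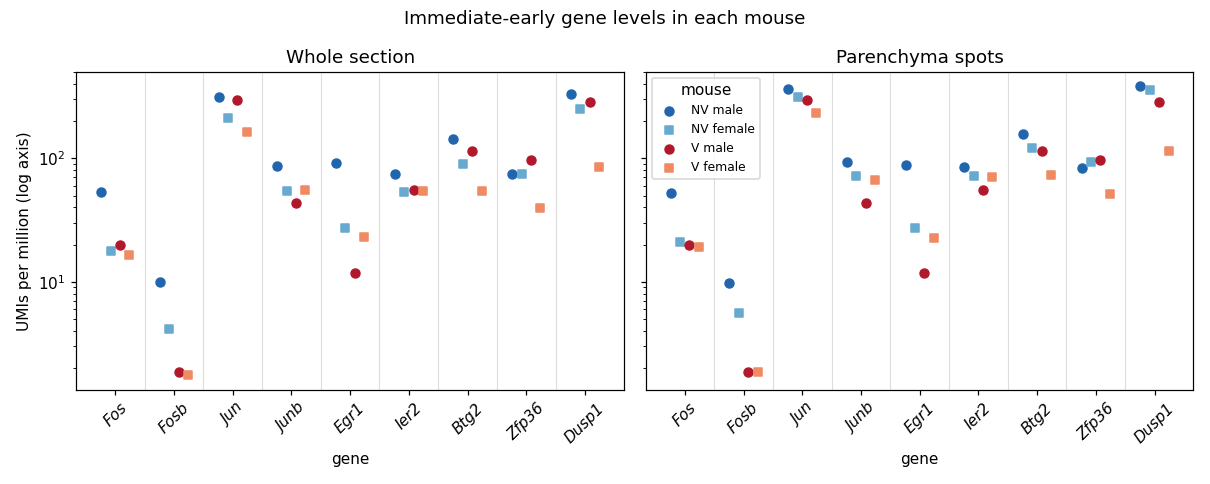
Level of each member in CPM (log axis) over the whole section (left) and over parenchyma spots (right), with 1 point per mouse and colors and shapes naming the mouse. Fosb and Egr1 lie lower in both V mice in both panels, and in parenchyma spots both V mice lie below both NV mice for every member but Zfp36.

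In edgeR's quasi-likelihood test 0 of 9 members passed an adjusted p of 0.05 with a log2 fold change over 0.25 in size, and 0 of 14570 genes did (0%). At an unadjusted p under 0.05 the same test had 248 genes, and DESeq2's Wald test called 8 genes, none of them a member. The log2 fold change was below 0 for 9 of 9 members, with a median of -0.53, against 46.3% of all genes tested and a median of 0.03. The count of members below both NV mice, 2 of 9, compares with 14.4% of all genes tested. Since the members were chosen with earlier results of these data known, these shares describe them and are no independent test. With 2 mice against 2, an exact permutation test of a single gene cannot give a two-sided p under 0.333. In these tissue sections, fewer cells of a type and less RNA per cell cannot be told apart.

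Because the sections held different tissue, the members were read again in parenchyma spots, defined by 6 markers of alveolar epithelium and lung capillaries (Sftpc, Sftpb, Hopx, Cldn18, Tmem100 and Calcrl) at 50% or more of their mean section level. These spots numbered 678, 344, 1564 and 1595 in the NV male, NV female, V male and V female, of 842, 473, 1565 and 2053 spots. The V male thus kept nearly its whole section and its levels, so changes from the whole section come from the other mice. Dusp1 was at 383, 355, 284 and 115 CPM in that order, and Btg2 at 159, 121, 116 and 73.5 CPM. The V female was lowest for both, and the V male was also below both NV mice. Junb was at 93.7, 72.3, 43.3 and 66.8 CPM and Jun at 366, 311, 296 and 233 CPM. Junb was lowest in the V male and Jun in the V female. Fosb was at 9.87, 5.60, 1.85 and 1.86 CPM and Egr1 at 88.6, 27.5, 11.9 and 22.8 CPM, close to their whole section values.

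Of the 9 members, 8 had both V mice below both NV mice in parenchyma spots, against 17.1% of 14327 genes tested. As the members were chosen with earlier results of these data known, this count is a description and no independent test. The exception was Zfp36, at 83.8, 94.1, 96.5 and 51.4 CPM, highest in the V male and lowest in the V female. Margins were narrow for some of the 8: the NV female was at 21.1 CPM for Fos against 19.9 for the V male, at 71.7 CPM for Ier2 against 70.0 for the V female, and at 121 CPM for Btg2 against 116 for the V male. In these spots too the B and plasma cell markers lay lower in both V mice (189 and 283 CPM against 469 and 546) and the macrophage markers higher (638 and 704 against 318 and 527), and the cardiac muscle markers were at 7853, 5663, 24.2 and 4659 CPM; their part was not tested. The median log2 fold change of the 9 members was -0.58, against 0.01 for all genes tested. By edgeR's test 0 of 9 members and 0 of 14327 genes (0%) were called, 379 genes had an unadjusted p under 0.05, and DESeq2's Wald test called 9 genes, none a member. Fosb (log2 fold change -2.06, SE 0.45) and Egr1 (-1.75, SE 0.63) were again the members with the largest fold changes.

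With either V mouse left out, some members passed the test in parenchyma spots. When the V female was left out, edgeR called 4 members lower in the parenchyma spots of the V male than in the 2 NV mice: Egr1 (log2 fold change -2.34, adjusted p 4.0e-06), Junb (-0.95, adjusted p 0.0011), Fosb (-2.11, adjusted p 0.0065) and Fos (-0.94, adjusted p 0.034). When the V male was left out, it called 2 members lower in the V female: Dusp1 (-1.65, adjusted p 6.7e-05) and Btg2 (-0.91, adjusted p 0.031). In these fits the lone V mouse is assumed to vary as the NV mice do. Without the V female 929 genes were called lower (6.54% of those tested) and 362 higher, and without the V male 55 lower (0.382%) and 117 higher, so that most calls then went the other way from the members. Over the whole section 0 members were called with either V mouse left out.

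Within each sex, the V over NV ratio of Dusp1 over the whole section was 0.853 in males and 0.341 in females, and that of Egr1 was 0.130 in males and 0.856 in females. The exact 95% counting intervals, which leave out the variation between mice, were 0.813 to 0.896 and 0.322 to 0.362 for Dusp1, and 0.108 to 0.156 and 0.730 to 1.01 for Egr1. The intervals of males and females did not overlap for either gene, and the order was opposite: Egr1 was further below 1 in males and Dusp1 in females. Fosb had ratios below 1 in both sexes, at 0.185 in males and 0.420 in females. Each ratio rests on 1 mouse per group, so a difference between the sexes and a difference between these mice cannot be told apart.

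**Figure D2:**
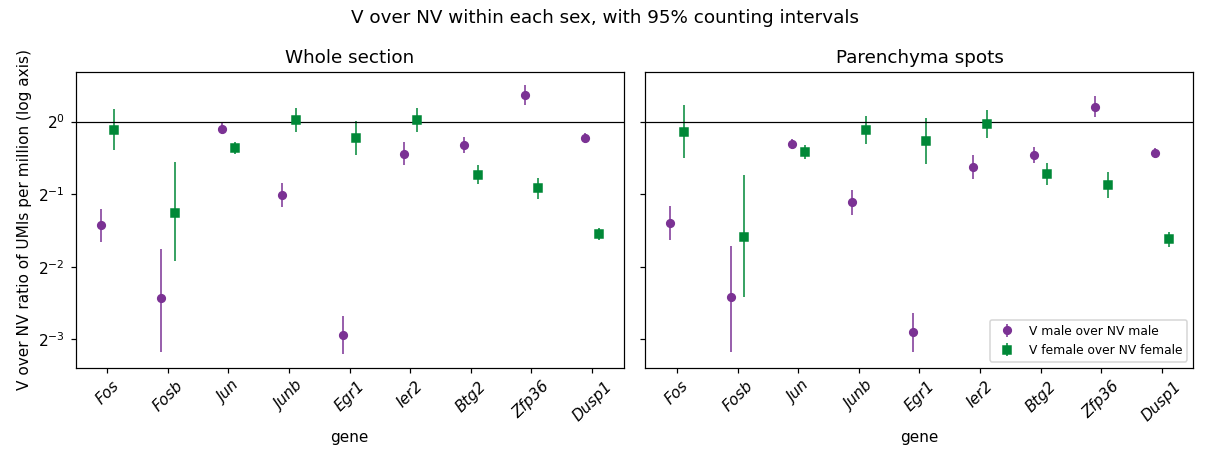
Ratio of the V mouse to the NV mouse of the same sex for each member (log axis with 1 as the horizontal line), over the whole section (left) and parenchyma spots (right). Points are ratios of CPM and bars are exact 95% counting intervals; Egr1, Fos and Junb lie further below 1 in males, and Zfp36 and Dusp1 are lower in females than in males.

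To read the members within like tissue, spots with at least 1000 UMIs were put in a class when they were among the richest 10% of their section for the markers of alveolar epithelium, airway epithelium, smooth muscle, cardiac muscle or endothelium, and spots rich in more than 1 list were left out. A spot can hold several cell types, so a class is a region rich in those markers. The V male's richest spots carried 6265 CPM of the 15 airway markers and 169 CPM of the 10 cardiac muscle markers, below the mean section levels of 10407 and 10734 CPM, so this mouse was not used in those 2 classes. Alveolar-, smooth muscle- and endothelial-rich spots were compared between 2 V and 2 NV mice, and airway- and cardiac muscle-rich spots between the V female alone and 2 NV mice. The classes held between 21 and 183 spots per mouse.

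In alveolar-rich spots, Egr1 came to 72, 12, 3 and 49 UMIs, or 78.9, 31.4, 3.80 and 18.3 CPM, in the NV male, NV female, V male and V female. The V male over NV male ratio, from 3 UMIs, was 0.0481 with a counting interval of 0.00969 to 0.146. Dusp1 was at 346, 343, 282 and 103 CPM and Jun at 339, 299, 262 and 227 CPM. Both V mice lay below both NV mice for Egr1, Dusp1 and Jun, and likewise for Junb and Ier2, which makes 5 of the 8 members tested, against 14.9% of all genes tested. The margin was narrow for Ier2, at 73.4 CPM in the NV female against 72.1 CPM in the V female. Fosb, with 4, 1, 0 and 6 UMIs, did not pass the filter on low counts. By edgeR 0 of 8 members and 0 of 9749 genes (0%) were called, while 253 genes had an unadjusted p under 0.05 and DESeq2 called 2 genes.

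Egr1 had the largest log2 fold change of the members tested in each of the 3 classes with 4 mice: -2.15 (SE 0.60) in alveolar-rich, -2.27 (SE 0.78) in smooth muscle-rich and -1.79 (SE 0.54) in endothelial-rich spots. In smooth muscle-rich spots it stood at 153, 31.5, 10.3 and 26.6 CPM, from 33, 8, 7 and 25 UMIs, and in endothelial-rich spots at 80.3, 28.5, 9.76 and 20.2 CPM. In both classes the NV male was the high mouse, and the NV female lay above the V female. Without the NV male the log2 fold change of Egr1 was -1.22, -0.72 and -0.78 in the 3 classes. Smooth muscle-rich spots were not alike in tissue between sections. Smooth muscle markers there came to 667 CPM in the V male against 1216 to 2127 CPM elsewhere. Alveolar markers came to 50665 CPM in this mouse against 25066 to 30716, and fibroblast markers to 508 CPM against 2032 to 2723. Its cardiac muscle markers were at 11.8 CPM against 3994 to 16229. What these differences add to the result for Egr1 was not tested.

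In smooth muscle-rich spots 2 of 8 members tested, Fos and Egr1, had both V mice below both NV mice (14.2% of 7685 genes), and in endothelial-rich spots 4 of 7 did: Jun, Egr1, Btg2 and Dusp1 (16.9% of 9114 genes). For Fos the NV female stood at 23.6 CPM from 6 UMIs, against 20.7 and 20.2 CPM in the V male and V female. Jun, which was highest in endothelial-rich spots, was there at 473, 359, 314 and 275 CPM. Dusp1 was there at 366, 425, 263 and 129 CPM, the NV female highest and the V female lowest. By edgeR 0 members were called in either class and 0 genes (0% in each), 306 and 248 genes had an unadjusted p under 0.05, and DESeq2 called 2 and 4 genes. Egr1 was called lower by edgeR in all 3 classes when the V female was left out (log2 fold change -3.98 in alveolar-rich, -3.20 in smooth muscle-rich and -2.57 in endothelial-rich spots), with Junb also called in smooth muscle-rich spots, where calls of lower genes made up 2.24%, 5.21% and 1.8% of all genes tested. Dusp1 was called lower in all 3 when the V male was left out (-1.74, -1.36 and -1.58), with Egr1 also called in alveolar- and smooth muscle-rich and Btg2 in endothelial-rich spots, where calls of lower genes made up 0.324%, 0.795% and 0.255%.

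**Figure D3:**
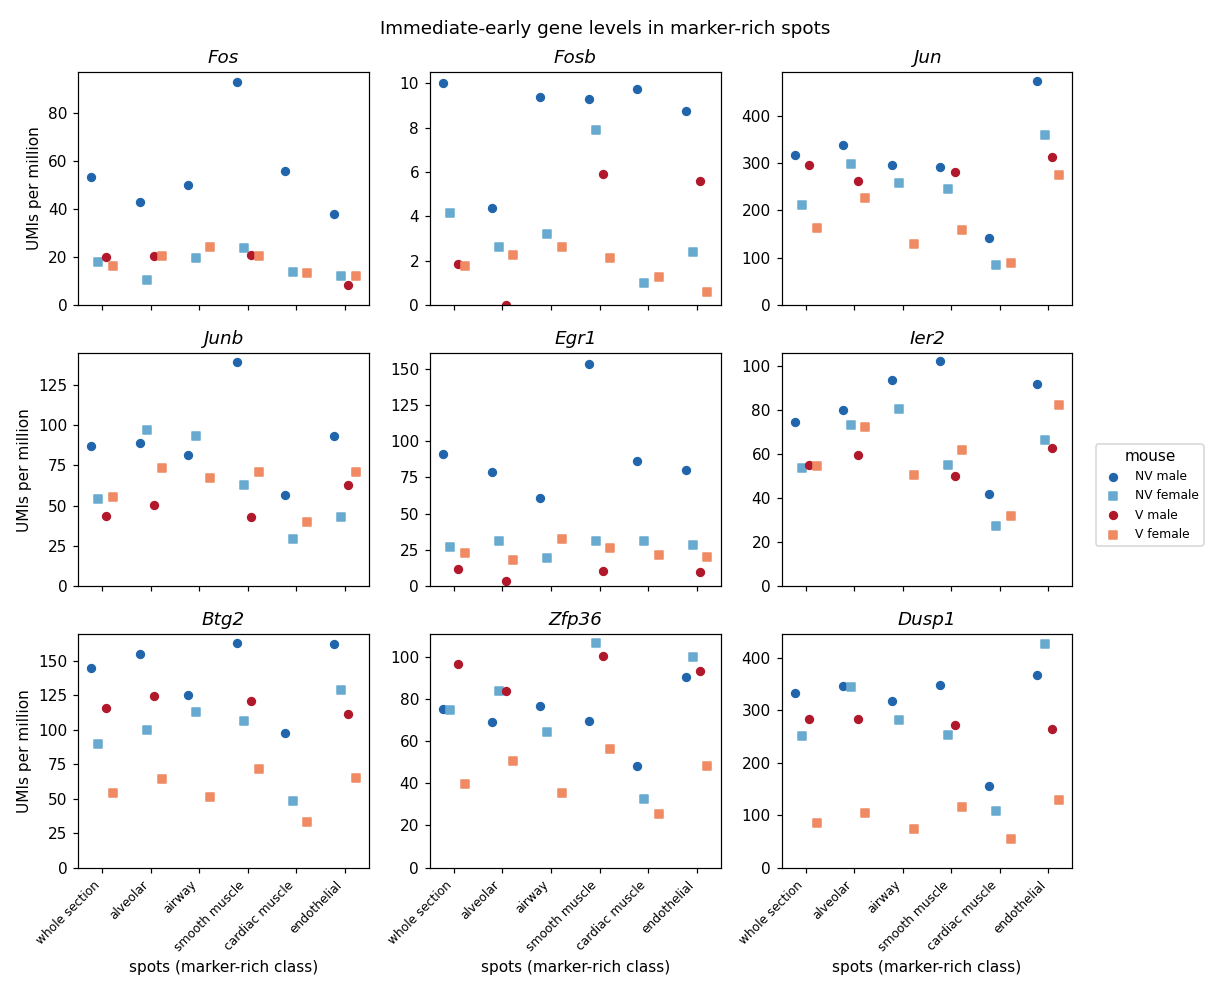
Level of each member in CPM over the whole section and in the 5 classes of marker-rich spots, with 1 point per mouse; the V male is drawn only where its spots passed the check of markers. Dusp1 is lowest in the V female throughout, Egr1 is highest in the NV male throughout, and Jun, Btg2 and Dusp1 of the NV mice are at their lowest in cardiac muscle-rich spots.

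In airway-rich spots, 3 of 8 members were called lower in the V female than in the 2 NV mice. With 1 V mouse, the spread behind these p-values comes from the NV mice alone, and the V mouse is assumed to vary as they do, which holds for cardiac muscle-rich spots too. Dusp1 was at 317 and 280.4 CPM in the NV pair (male first) and at 73.8 CPM in the vaped female, with a log2 fold change of -1.91 (SE 0.32, adjusted p 3.1e-07 in edgeR's test). Btg2 was at 125, 113 and 50.9 CPM (-1.12, SE 0.30, adjusted p 0.0066), and Jun at 295, 258 and 129 CPM (-0.99, SE 0.30, adjusted p 0.023). For these 3 genes the V female lay far below a pair of NV mice that were close together. Zfp36 was at 76.5, 64.5 and 35.6 CPM (-0.91, SE 0.31, adjusted p 0.051), and Egr1 at 60.9, 19.3 and 32.7 CPM, between the NV mice.

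Calls of lower genes made up 1.75% of the 9816 genes tested in airway-rich spots and calls of higher genes 4.57%, and 0 of 8 members were called higher. The V female lay below both NV mice for 6 of 8 members, against 40.3% of all genes tested. DESeq2's Wald test called 1 member, Dusp1, and 41 genes, where edgeR called 621. The airway-rich spots of the V female differed from those of the NV mice in other ways: the alveolar markers summed to 17852 CPM against 39380 and 42730, the endothelial markers to 2632 CPM against 4822 and 4912, and the median depth was 20612 UMIs per spot against 9660 and 8709. The part of these in the result was not tested.

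In cardiac muscle-rich spots, Dusp1 was at 155 and 107 CPM in the NV pair (male first) and at 54.3 CPM in the V female, and was called lower in the V female (log2 fold change -1.41, SE 0.29, adjusted p 0.0135 in edgeR's test, with the spread from the NV mice alone). This was 1 of 9 members tested, where calls of lower genes made up 0.245% of 10211 genes and calls of higher genes 0.656%. Egr1 was at 86.1, 31.4 and 21.6 CPM (-1.60, SE 0.39, adjusted p 0.053), Btg2 at 97.6, 48.1 and 33.2 CPM (-1.28, SE 0.33, adjusted p 0.072), and Fos at 55.9, 13.7 and 13.4 CPM (-1.53, SE 0.47, adjusted p 0.17). The V female lay below both NV mice for 5 of 9 members, against 21% of all genes tested. The call of Dusp1 depended on the settings: its adjusted p was 0.26 by DESeq2, 0.093 with total UMIs in place of TMM and 0.088 with the richest 20% of spots. Calls split into 67 higher and 25 lower with TMM, and 51 higher and 7 lower with total UMIs, which moved the median of all genes from -0.01 to 0.13.

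Between classes of the same mouse, 6 of the 9 members stood lower in cardiac muscle-rich than in alveolar-rich spots in each of 3 mice. They were Jun, Junb, Ier2, Btg2, Zfp36 and Dusp1, while Fos, Fosb and Egr1 did not stand lower in all 3. Levels were scaled to total UMIs, on which scale most genes stood lower there. In the fit scaled so, the median log2 fold change of all genes was -0.58 and 5804 of 10836 genes were called lower. Jun was at 339, 299 and 227 CPM in alveolar-rich spots (both NV mice, then the V female), and at 141, 85.4 and 89.5 CPM in their cardiac muscle-rich spots. Dusp1 was at 346, 343 and 103 CPM in the former and at 155, 107 and 54.3 CPM in the latter. In each of the 3 mice with both classes the cardiac muscle-rich level of Jun was between 0.286 and 0.416 of the alveolar-rich level, and that of Dusp1 between 0.312 and 0.526. The same ratio lay between 0.375 and 0.521 for Ier2, between 0.483 and 0.631 for Btg2, between 0.386 and 0.694 for Zfp36 and between 0.304 and 0.639 for Junb. It was 1.09, 0.999 and 1.18 for Egr1, near 1 in each mouse, and 1.31, 1.31 and 0.654 for Fos, above 1 in both NV mice.

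In edgeR's test with the mouse as a block, 4 of 8 members were lower in cardiac muscle-rich than in alveolar-rich spots: Jun (log2 fold change -0.87, SE 0.14, adjusted p 4.6e-06), Dusp1 (-0.71, SE 0.15, adjusted p 0.00018), Ier2 (-0.64, SE 0.17, adjusted p 0.0024) and Btg2 (-0.37, SE 0.15, adjusted p 0.0497). Egr1 was called higher (0.74, SE 0.23, adjusted p 0.010). The call of Btg2 was lost under 8 alternatives, DESeq2 (adjusted p 0.13) and no filter on low counts (0.11) among them, and without the NV female (0.12), the V male (0.13) or the V female (0.26). That of Ier2 was lost without the V female (adjusted p 0.062), and that of Egr1 with the richest 20% of spots (0.17). Calls of lower genes made up 16.9% of the 10836 genes tested and calls of higher genes 19.7%. Scaled to total UMIs alone, the split was 1066 higher and 5804 lower against 2140 higher and 1832 lower with TMM, the median of all genes moved from -0.03 to -0.58, and Egr1, with a log2 fold change of 0.16, was no longer called, while 6 members were called lower. Relative to that shift Jun, Dusp1, Ier2 and Btg2 were lower than the typical gene and Egr1 higher under both scalings. Mitochondrial genes took 194951 to 242666 CPM in the cardiac muscle-rich spots of these 3 mice and 52956 to 85050 CPM in their alveolar-rich spots, and their part in the result was not tested.

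Airway-, smooth muscle- and endothelial-rich spots differed less from alveolar-rich spots. By edgeR 0 of 8 members were called in any of the 3 contrasts, where 2.91%, 1.73% and 0.378% of the 10836 genes were called, 1357, 1067 and 762 genes were at an unadjusted p under 0.05, and DESeq2 called 0 members. The level of the summed members was 0.739 to 0.921 of the alveolar-rich level in airway-rich spots, 0.856 to 1.14 in smooth muscle-rich spots and 1.05 to 1.17 in endothelial-rich spots. Jun in endothelial-rich spots was above its alveolar-rich level in each of the 4 mice (473, 359, 314 and 275 against 339, 299, 262 and 227 CPM). Egr1 in smooth muscle-rich spots exceeded its alveolar-rich level by a factor of 1.94 (NV male), 2.72 (V male) and 1.45 (V female), and the NV female stood at 31.5 against 31.4 CPM. Fosb was not tested in these contrasts because of low counts.

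**Figure D4:**
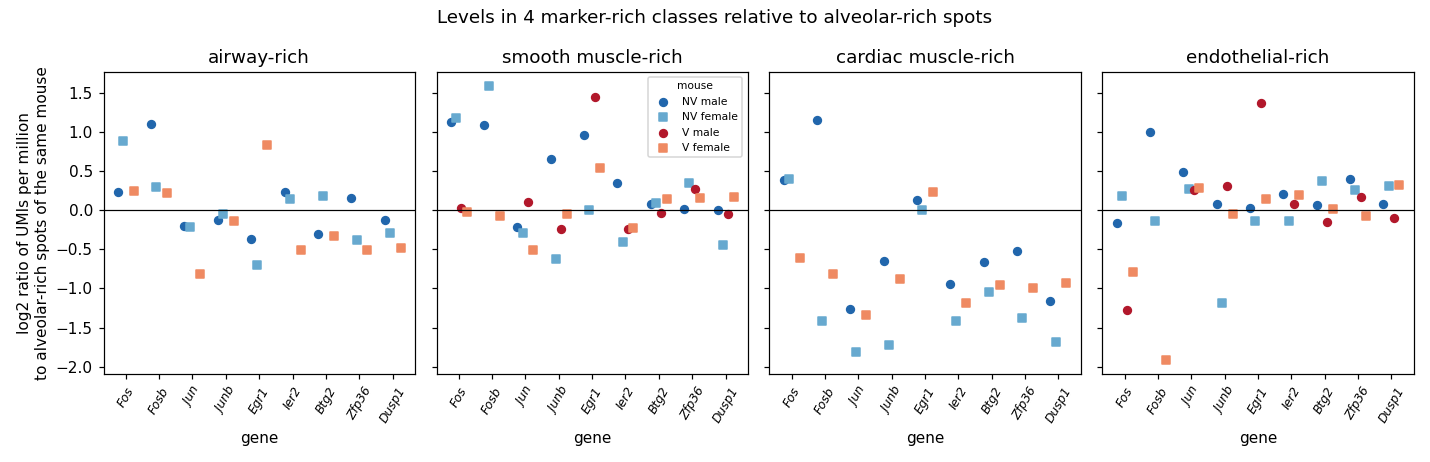
Log2 ratio of the level of each member in airway-, smooth muscle-, cardiac muscle- and endothelial-rich spots to that in the alveolar-rich spots of the same mouse, with 1 point per mouse and 0 as the horizontal line. In the cardiac muscle panel Jun, Junb, Ier2, Btg2, Zfp36 and Dusp1 lie below 0 in all 3 mice while Egr1 lies near 0. Scaled to total UMIs, the median log2 fold change of all genes in that contrast was -0.58. Fosb of the V male is absent because its alveolar-rich spots held 0 UMIs.

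The contrast of airway-rich with alveolar-rich spots was compared between the groups. In the airway and cardiac muscle contrasts the V group was the V female alone. Egr1 in airway-rich spots was 0.772 and 0.615 of its alveolar-rich level in the NV male and NV female and 1.78 times that level in the V female. The interaction of class and group for Egr1 was 1.43 on the log2 scale (SE 0.40, adjusted p 0.053 in edgeR's test), and with the richest 20% of spots it was also 1.43, with an adjusted p of 0.029. By edgeR 0 of 8 members passed the test in the airway, smooth muscle, cardiac muscle or endothelial contrast, where 0.752%, 0.0342%, 0.701% and 0% of 11699 genes did, with 1123, 643, 1068 and 348 genes at an unadjusted p under 0.05. DESeq2 called 0 members in each of the 4 contrasts.

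The wider family was read from 4 lists of 49 genes chosen by function, with earlier results of these data known. Counts from these lists are a description and no independent test of the members' result. Those in airway-rich spots are to be read beside the shares of all genes called there, given above. In airway-rich spots, where Dusp1, Btg2 and Jun were lower in the V female, 8 of 19 other immediate-early genes tested were also called lower and 0 higher, with a median log2 fold change of -1.04 against -0.01 for all genes. This is again 1 V mouse against 2 NV mice, and DESeq2 called 1 of the 19, Klf2. They were Nr4a1 (-2.59, adjusted p 8.1e-13 in edgeR's test) and Csrnp1 (-2.42, adjusted p 3.5e-07), which encode nuclear factors of the early response, Klf2 (-2.25, adjusted p 3.1e-09) and Klf4, factors of quiescent vessel and epithelium, Ccn1, a matricellular protein, Rhob, a small GTPase, Sik1, a kinase, and Mcl1, a survival protein of the BCL2 family. The 5 others named lay between -1.04 for Mcl1 and -1.66 for Ccn1. Of 5 other AP-1 and small Maf subunits tested, Fosl2 (-1.11) and Mafk (-1.35) were called lower and 0 higher, and DESeq2 called 0. Of the relatives of the members, such as Zfp36l1, Zfp36l2 and Btg1, 0 of 4 were called, and 0 of 12 upstream kinases and serum response factors, such as Mapk3, Mapk14, Map2k2 and Elk4, were called, with medians of -0.18 each.

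Over the whole section 0 genes of the 4 lists were called. Nr4a1 stood at 232, 87.1, 22.4 and 25.2 CPM in the NV male, NV female, V male and V female, and Ccn1 at 216, 63.5, 57.1 and 56.8 CPM, so that both V mice lay below both NV mice, as for Fosb and Egr1. Klf2 followed the pattern of Dusp1, at 806, 556, 648 and 215 CPM, with the V female lowest and the V male between the NV mice. Other immediate-early genes lay the opposite way: Gadd45b was at 42.0, 43.3, 116 and 58.1 CPM and Ier3 at 138, 107, 177 and 166 CPM, both above the NV mice in each V mouse. Of 22 other immediate-early genes 7 had both V mice below both NV mice and 2 above, with a median log2 fold change of -0.37. Of all genes tested, 14.4% lay below and 12.6% above. The medians were -0.45 for 7 other AP-1 and ATF subunits, such as Jund, Mafk, Fosl2, Maff and Atf3, -0.23 for 5 relatives of the members and -0.03 for 13 upstream kinases and serum response factors, against 0.03 for all genes.

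In cardiac muscle-rich spots of the V female, Nr4a1 (log2 fold change -2.94, adjusted p 9.8e-05 in edgeR's test) and Klf2 (-1.41, adjusted p 0.0089) were the 2 of 17 other immediate-early genes called, both lower than in the NV mice and both called by DESeq2. Against alveolar-rich spots, cardiac muscle-rich spots had 11 of 19 other immediate-early genes called lower and 0 higher (Ier3, Klf2, Klf4, Klf6, Gadd45b, Ccn1, Socs3, Nfkbia, Dusp6, Trib1 and Mcl1), together with 3 of 5 AP-1 and small Maf genes (Jund, Maff and Mafk) and 3 of 5 relatives (Zfp36l1, Btg1 and Btg3). Among 13 kinases and serum response factors 4 were called lower (Elk3, Elk4, Creb1 and Mapk3) and 2 higher (Srf and Map2k2). Of all 10836 genes tested in cardiac muscle-rich against alveolar-rich spots, 16.9% were called lower and 19.7% higher. Srf, which encodes the factor that binds the CArG box, had a log2 fold change of 1.36 (SE 0.25, adjusted p 3.3e-05 in edgeR's test). Airway-rich spots had Ccn1 lower than alveolar-rich spots (-0.63, adjusted p 0.012 in edgeR's test). By edgeR, Klf2 was the other-list gene whose airway contrast was called different from that of the NV mice (-0.79). Zfp36l2 was the one whose cardiac muscle contrast was (0.82). Both rest on the V female alone, since the V male was not used in those classes.

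Spot by spot, the members held a median of 12, 10, 6 and 7 UMIs in all per spot in the NV male, NV female, V male and V female, and 1.60% to 4.48% of spots with at least 1000 UMIs held 0. Relative to depth, the median was 11.7, 8.94, 9.10 and 5.48 UMIs per 10000. The correlation of log levels between pairs of members, averaged over the 4 sections, ran from -0.01 to 0.15 over 36 pairs, with a median of 0.04. At so few UMIs per spot such correlations carry little weight. Jun and Dusp1 made the highest pair, at 0.20, 0.29, 0.01 and 0.12 in the NV male, NV female, V male and V female.

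The 10 genes that were no members and correlated most with the summed members over spots were Inmt, Tmsb4x, Sftpc, Ager, Lyz2, Hopx, Cxcl15, Ramp2, Epas1 and Emp2, with mean correlations from 0.29 to 0.34 among 8887 genes. Sftpc, Lyz2 and Cxcl15 mark alveolar type 2 cells, Ager and Hopx alveolar type 1 cells, and Ramp2 and Epas1 are high in lung endothelium. In the V male each of the 10 had a correlation between -0.06 and 0.08, and in the other 3 sections between 0.26 and 0.58. The sum leans on Jun and Dusp1, which held 2969 and 3121 of the 11122 member UMIs in the NV male. Each member's own mean correlation with the sum of the others ran from 0.013 (Egr1) to 0.18 (Jun). The median of genes that are no members was 0.045, and Fosb (0.041) lay below it, as did Egr1. Among the 100 highest genes 0 were members, so the 10 genes describe the sum and not each member. Spots of a section share their library and neighborhood, so these values describe the sections and were not tested.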

How the data were processed

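The authors aligned the reads to mm10 with Space Ranger and deposited UMI counts for every gene in each tissue spot, 1 table per section, unnormalized (the Seurat 4.0.3 steps of the study are not in these counts). The members and all gene lists were chosen with earlier results of these data known. UMIs were summed per mouse over the section, parenchyma spots or marker-rich spots, with classes used from 20 spots and from a marker level at or above the mean of the 4 sections. Levels (CPM) were scaled to total UMIs. Sums were tested with edgeR 4.0.16 in R 4.3.3 (TMM, filterByExpr, quasi-likelihood test, Benjamini-Hochberg adjustment over all genes tested, adjusted p under 0.05 and log2 fold change over 0.25 in size), with the mouse as a block between classes, where the genes of the class marker lists were left out. DESeq2 1.42.0, other scalings, filters and classes, and each mouse left out were alternatives. The parenchyma comparison's own alternatives were chosen after seeing the data. Text names the 9 members, from each of 4 other lists the 5 genes of highest mean level and every gene called (1 gene that this rule names is not reported here), and the 10 genes most correlated with the members over spots (mean of at least 0.1 UMIs per spot). Gadd45b and Ier3 over the whole section were picked after their values were seen. Counts were simulated at a set dispersion of 0.05, with 200 of 14691 genes changed 4-fold over the whole section. There edgeR recovered 94% and DESeq2 90.5% of them. In the airway-rich design, with 200 of 9761 genes changed, they recovered 64.5% and 16%. The dispersion was not estimated from these mice, so these shares do not give the power of the tests on the data. Counts of UMIs per section set the precision, and intervals and 0 counts cover counting error only. The study's methods state that the samples were handled together, to keep out technical batches.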

Additional observations from a re-analysis of the deposited data

Results flagged for a closer look

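Members were listed for a closer look where the V over NV ratio went opposite ways in males and females. Over the whole section, Zfp36 was 1.29 in males (95% counting interval 1.17 to 1.41) and 0.529 in females (0.478 to 0.586), and in parenchyma spots it was 1.15 in males (1.04 to 1.27) and 0.546 in females (0.482 to 0.618). Junb over the whole section was 0.497 in males and 1.02 in females, with an interval of 0.910 to 1.14 in females. Ier2 over the whole section was 0.737 in males and 1.02 in females, with an interval of 0.908 to 1.14 in females. For Junb and Ier2 the interval in females holds 1, so the opposite sign is not shown at this depth. The differences between the sexes were not tested, since each sex had 1 mouse per group.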

How the results depend on the processing

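Over the whole section 0 members were called under every alternative that was run. In parenchyma spots leaving out 1 mouse gave 0 to 4 members called, and in alveolar-, smooth muscle- and endothelial-rich spots 0 to 2. Without the filter on low counts 1 member, Egr1, was called lower in V in each of these 3 classes. In airway-rich spots DESeq2 called 1 member where edgeR called 3. In cardiac muscle-rich spots, where edgeR called 1, the count was 0 by DESeq2, with total UMIs and with the richest 20% of spots, and 4 with DESeq2 size factors, with the richest 10% of pooled spots and with spots rich in more than 1 list kept. With such spots kept 1 member (Egr1) was higher in smooth muscle-rich than alveolar-rich spots, with only the 2 classes in the fit 1 (Jun) was higher in endothelial-rich spots, and with the richest 20% of spots 1 (Egr1) differed between V and NV in the airway contrast. Of the 10 genes most correlated with the summed members, 8 were shared with Spearman correlation and 10 with a mean of at least 0.5 UMIs per spot.

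Some members had log2 fold changes of V against NV of either sign when 1 mouse was left out: Jun ran from -0.62 to 0.060 and Zfp36 from -0.85 to 0.23 over the whole section, and Zfp36 from -0.76 to 0.11 in parenchyma, -0.57 to 0.13 in alveolar-rich and -0.64 to 0.063 in smooth muscle-rich spots. Fos ran from -1.11 to 1.0 in alveolar-rich, Ier2 from -0.96 to 0.021 in smooth muscle-rich and -0.38 to 0.19 in endothelial-rich and Junb from -0.48 to 0.70 in endothelial-rich spots. Fos in cardiac muscle-rich against alveolar-rich spots turned from 0.38 to -0.19 with total UMIs and ran from -0.015 to 0.78 without 1 mouse. The cause was not tested. Of 732 refitted values of members, 659 kept direction and call. The setting without a fold threshold reuses the main fit, so its direction could not change. Most main values were not called, so a kept call mostly means uncalled in both fits.

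The replicate number is also the sex. As a block it left 0 members called and 0 genes over the whole section and 6 genes in endothelial-rich spots, and turned Junb there to 0.022. Same-numbered mice deviated together with a correlation of 0.324 over 14570 genes, but 2 pairs and a number do not show pairing. Airway- and cardiac muscle-rich spots, with 1 V mouse, could not be fitted with a block or with a mouse left out. V and NV were not compared in airway-rich spots chosen from pooled spots. The NV female had only 2 such spots, too few for the class.

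Counts of all genes called moved by over 1.5 times in places: over the whole section 0, but 8 by DESeq2, 811 without the V female and 21 without the V male; in airway-rich spots 621 against 41 by DESeq2 and 1014 with mixed spots kept; in cardiac muscle-rich against alveolar-rich spots 3972 against 6870 with total UMIs. With total UMIs the median of all genes in airway-rich spots moved from -0.01 to -0.12. Marker-rich spots gave few UMIs for Fosb, which limits every statement on it there.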
